A study of Homo sapiens with 24 samples.

Results

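Ruxolitinib and itacitinib are inhibitors of Janus kinases (JAKs) that share a chemical core, a pyrrolopyrimidine joined to a pyrazole, and were compared with each other here in 8 of the 24 RNA sequencing libraries of the study. Both were chosen for that shared core, 2 of the 5 inhibitors tested. HEL cells, an established human erythroleukaemia line, were treated with DMSO, the solvent control, or with an inhibitor at 500 nM for 4 h or 48 h, and every combination of treatment and time had 2 libraries. The groups used are DMSO, ruxolitinib and itacitinib at each time, 12 libraries in all. They share 1 cell line, so every difference below is within HEL cells, which carry an activating JAK2 mutation in all groups. The labels do not say whether the replicates were separate cultures. The p-values rest on how far the 2 libraries within a group lay apart, estimated over all 12 combinations of treatment and time together. That spread may be a technical one. Total counts ran from 32153866 to 56618281 over the 8 ruxolitinib and itacitinib libraries, and replicates of every group differed by more than sampling noise. At 48 h the itacitinib libraries were deeper, with 45942802 and 56618281 counts against 35828073 and 33484457 with ruxolitinib. The dose and times of the compounds were matched, which made 2 direct comparisons, ruxolitinib minus itacitinib at 4 h and at 48 h.

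Cytokine receptors have no kinase of their own and signal through JAKs bound to them. The JAKs phosphorylate STAT transcription factors, which enter the nucleus and switch on target genes, among them SOCS3 and CISH, whose products shut the pathway down again. JAK2 serves the receptors for erythropoietin and thrombopoietin, and mutations that keep it active underlie most myeloproliferative neoplasms. JAK1 serves interferon and many interleukin receptors. Ruxolitinib inhibits JAK1 and JAK2, and itacitinib is selective for JAK1. In ruxolitinib the pyrazole nitrogen carries a cyclopentyl propanenitrile. In itacitinib it carries an azetidine with an acetonitrile arm, and the azetidine is linked to a piperidine that bears a fluorinated pyridine carbonyl group.

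All 12 markers of the HEL line that were looked at, erythroid and megakaryocytic genes such as HBG2 and ITGA2B, were expressed in the 12 libraries. Their summed level was 4073 to 4267 CPM (read counts scaled to library size) with ruxolitinib and 4123 to 4154 CPM with itacitinib at 4 h, and 5445 to 5517 against 4212 to 4362 CPM at 48 h. The 5 lymphoid markers summed to 4.55 to 4.63 CPM with ruxolitinib at 48 h and 6.53 to 6.81 CPM with itacitinib, almost all of it CD79A, while CD3D and CD3E stayed near 0. The 3 epithelial markers, almost all KRT18, summed to 3.29 to 3.94 against 6.38 to 6.88 CPM, and the part of other cells in the results was not tested. The 5 granulocyte and monocyte markers summed to 36.4 to 39.0 CPM with ruxolitinib and 36.6 to 37.2 CPM with itacitinib at 48 h. Almost all of it was LYZ, which stood at 35.6 to 38.9 CPM over the 12 libraries. The B cell marker MS4A1 and the granulocyte marker S100A8 had no counts.

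At 4 h, 1283 of 16076 tested genes (7.98%) differed between the compounds, 524 higher (3.26%) and 759 lower (4.72%) with ruxolitinib. A gene was called when its p-value from edgeR's quasi-likelihood test, adjusted by the method of Benjamini and Hochberg over all genes and both times, was under 0.05. Few of these differences were large: at least 2-fold was reached by 15 genes in the upward and 82 in the downward direction. For 9879 genes (61.5%) the 95% interval of the difference lay within 0.5 on the log2 scale, or 1.41-fold, either way, and 775 of those were called. Neither a call nor so narrow an interval was reached by 5689 genes. The count fell to 744 without ruxolitinib replicate 1 and to 759 without itacitinib replicate 2.

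At 48 h, 3188 genes (19.8%) differed, 1698 higher (10.6%) and 1490 lower (9.27%) with ruxolitinib, and 79 and 231 of these by at least 2-fold. The interval lay within 1.41-fold for 9105 genes (56.6%). The count was 2014 without ruxolitinib replicate 2. The direct comparisons at the 2 times share no library. Of the 759 genes lower with ruxolitinib at 4 h, 335 (44.1%) were lower at 48 h too, which is 22.5% of the 1490, and 16 were higher. Of the 524 higher genes, 284 (54.2%) were higher at 48 h, 16.7% of the 1698, and 12 were lower. Across the 3824 genes called at either time the differences had Pearson's r = 0.311 and Spearman's rho = 0.524, and across all 16076 genes 0.161 and 0.254. These correlations are across genes, which are not independent replicates. The direct difference changed between the times in 1299 genes (8.08%), upward in 742 (4.62%) and downward in 557 (3.46%), and the count was 737 without ruxolitinib 48 h replicate 2, 797 without itacitinib 4 h replicate 2 and 832 without itacitinib 48 h replicate 1.

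**Figure D1:**
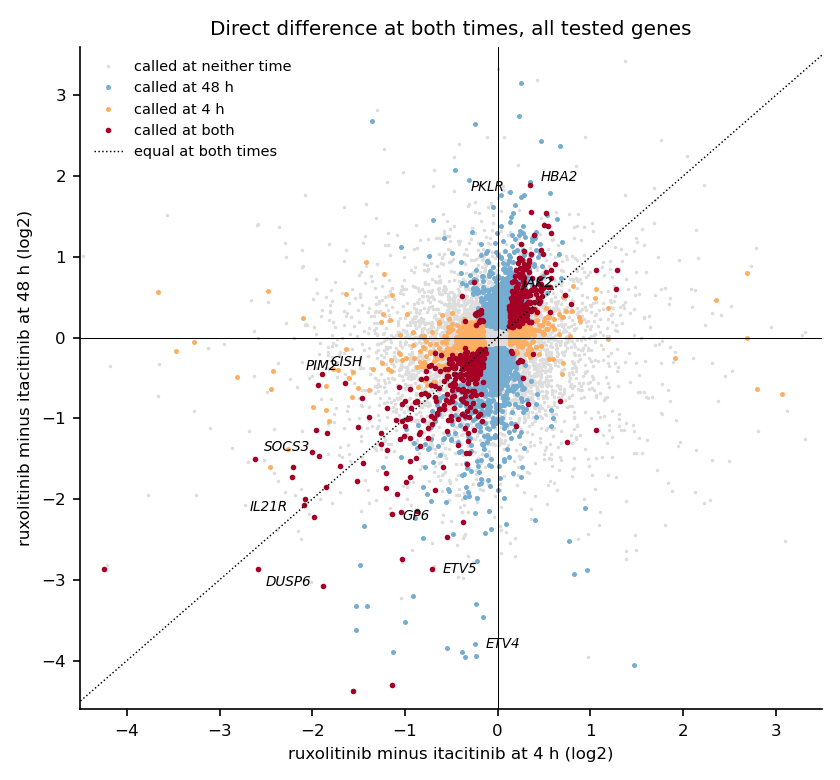
Each point is 1 of the tested genes, with the log2 difference ruxolitinib minus itacitinib at 4 h on the horizontal axis and at 48 h on the vertical axis, and colour gives the time at which it was called. SOCS3, CISH and PIM2 lie further from 0 at 4 h, ETV4, ETV5 and HBA2 further at 48 h, and IL21R near the line of equal differences. The axes leave out 39 genes with larger differences.

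Each compound was also set against DMSO. At 4 h, 1355 genes (8.43%) changed with ruxolitinib, 548 higher (3.41%) and 807 lower (5.02%). With itacitinib 376 genes (2.34%) passed, 287 higher (1.79%) and 89 lower (0.554%), but the 4 comparisons with DMSO were adjusted together, so the many calls of ruxolitinib lower the bar for itacitinib. Adjusted within the comparison alone, 125 genes (0.778%) changed with itacitinib at 4 h, 108 higher (0.672%) and 17 lower (0.106%), and 1361 (8.47%) with ruxolitinib, 550 higher (3.42%) and 811 lower (5.04%). At 48 h, 3287 genes (20.4%) changed with ruxolitinib, 1583 higher (9.85%) and 1704 lower (10.6%), or 4137 (25.7%) adjusted alone, 2011 higher (12.5%) and 2126 lower (13.2%). With itacitinib 347 (2.16%) passed, 124 higher (0.771%) and 223 lower (1.39%). Adjusted alone 71 (0.442%) passed, 14 higher (0.0871%) and 57 lower (0.355%). The split by direction of the calls adjusted together (35.7% higher) moved with the processing. It was 54 higher and 282 lower (16.1% higher) with DESeq2, 197 and 199 (49.7%) without the low-count filter, 231 and 238 (49.3%) with only the libraries of 48 h, and 257 and 245 (51.2%) with only the libraries of both groups, so no lean to either direction is read from it. Below, a gene is said to have changed with itacitinib where it passed within the comparison alone. Without 1 library the count for itacitinib at 4 h, adjusted together, was 231 without DMSO replicate 1, 178 without DMSO replicate 2 and 107 without itacitinib replicate 2. At 48 h it was 140, 166 and 138 in the same order. For ruxolitinib at 4 h it was 850 when DMSO replicate 2 was left out, 870 when ruxolitinib replicate 1 was and 880 when ruxolitinib replicate 2 was, and at 48 h it was 2125 without ruxolitinib replicate 2. Both compounds are set against the same 2 DMSO libraries of a time, so their values are given side by side.

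The listed JAK-STAT target genes were nearly all lower with ruxolitinib than with itacitinib at 4 h. Of 21 tested JAK-STAT target genes, 18 were lower with ruxolitinib than with itacitinib and 1 was higher, with a median difference of -1.14 on the log2 scale against -0.00367 over all genes. Against DMSO, 19 of the 21 fell with ruxolitinib (median -1.06) and none passed with itacitinib by edgeR's quasi-likelihood test adjusted within the comparison (median -0.073). Adjusted together 1 fell, and at an unadjusted p under 0.05 4 fell and 2 rose. At 48 h 15 were lower and 1 was higher, with a median of -0.567. The shares over all genes were 4.72% lower and 3.26% higher at 4 h, and 9.27% and 10.6% at 48 h. Against DMSO, 14 of the 21 then fell with ruxolitinib and 2 with itacitinib, or 1 adjusted alone.

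SOCS3, a feedback inhibitor of cytokine receptors (chr17:78356778-78360077, minus strand, GRCh38), stood at 33.4 and 32.1 CPM with DMSO, 32.2 and 33.4 with itacitinib and 5.18 and 5.53 with ruxolitinib at 4 h. The itacitinib libraries lay within the range of DMSO, and both ruxolitinib libraries lay far below. The difference between the compounds was -2.61 on the log2 scale (SE 0.15, 95% interval -2.92 to -2.31, adjusted p = 7.01e-15), or 6.12-fold lower with ruxolitinib. At 48 h SOCS3 stood at 32.6 and 36.4 CPM with DMSO, 31.7 and 28.7 with itacitinib and 11.3 and 9.97 with ruxolitinib, and the difference was -1.50 (SE 0.13, adjusted p = 2.55e-10). It had narrowed by 1.11 (SE 0.20, adjusted p = 3.46e-04 for the contrast between the times). Its relative SOCS1 differed by -1.93 at 4 h (adjusted p = 1.55e-09) and -1.47 at 48 h (adjusted p = 7.18e-07), and SOCS2, by smaller amounts, -0.43 (adjusted p = 3.02e-04) and -0.26 (adjusted p = 0.0283). The 48 h call of SOCS2 was lost without ruxolitinib replicate 2 or either itacitinib replicate (adjusted p up to 0.443).

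CISH, another feedback inhibitor and a target of STAT5 (chr3:50606490-50611831, minus strand), stood at 43.7 and 51.9 CPM with DMSO, 49.98 and 55.1 with itacitinib and 13.8 and 14.4 with ruxolitinib at 4 h. Ruxolitinib libraries held 3.72-fold less than itacitinib libraries, a difference of -1.90 on the log2 scale (SE 0.08, 95% interval -2.06 to -1.73, adjusted p = 1.63e-17). At 48 h the values were 44.4 and 44.6 CPM with DMSO, 48.8 and 48.4 with itacitinib and 35.96 and 35.00 with ruxolitinib, so the groups still did not overlap, yet the difference was -0.45 (SE 0.07, adjusted p = 3.10e-05). The change in the difference between the times was 1.44 (SE 0.11, adjusted p = 5.89e-11).

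CISH shows what sequence can lie before the start of such genes. STAT proteins bind the palindrome TTCNNNGAA, the same on both strands, which was searched in the 300 bases around the transcript start (250 before it and 50 after) that RefSeq gives for each gene on GRCh38.p14. Of the 18 target genes lower with ruxolitinib at 4 h, 12 had such windows, 14 in all, and 1 window (7.14%), that of CISH, held the motif. Over all 35116 windows the share was 7.66%. The stretch of that window before the start of CISH in both RefSeq and GENCODE (GRCh38.p14 chr3:50611832-50612024, minus strand) is printed 5' to 3', with the motif in capitals. It holds the motif 4 times, from bases 10, 21, 122 and 139. A match is a description of the letters, and a window without one says nothing of STAT binding elsewhere.
CISH: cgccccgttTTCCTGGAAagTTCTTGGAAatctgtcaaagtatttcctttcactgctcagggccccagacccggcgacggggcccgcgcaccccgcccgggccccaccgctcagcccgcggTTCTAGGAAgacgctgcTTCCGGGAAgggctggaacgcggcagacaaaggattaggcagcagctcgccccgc

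PIM1 and PIM2 encode serine/threonine kinases that promote survival of blood cells. PIM1 stood at 628 and 632 CPM with DMSO, 591 and 629.5 with itacitinib and 190.1 and 199.8 with ruxolitinib at 4 h, with no overlap between ruxolitinib and the other groups. The compounds differed by -1.65 on the log2 scale (SE 0.06, 95% interval -1.76 to -1.53, adjusted p = 1.03e-20) in PIM1, or 3.13-fold. At 48 h they differed by -0.57 (SE 0.05, adjusted p = 1.10e-09), with 537 and 508 CPM with itacitinib and 365 and 341 CPM with ruxolitinib. PIM2 followed the same course, with 167 and 166 CPM with itacitinib and 44.1 and 43.1 CPM with ruxolitinib at 4 h and 167 and 152 against 109 and 104 CPM at 48 h. Its difference moved from -1.94 to -0.58, a contrast between the times of 1.35 (SE 0.09, adjusted p = 6.50e-13).

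IL21R, the interleukin-21 receptor, stood at 18.1 and 18.4 CPM with itacitinib and 3.70 and 4.78 CPM with ruxolitinib at 4 h, and at 21.4 and 19.95 against 5.51 and 4.33 CPM at 48 h. The differences were -2.09 (adjusted p = 1.04e-14) and -2.07 (adjusted p = 5.21e-15), and the contrast between them was 0.03 (95% interval -0.33 to 0.38). BCL3, a regulator of NF-kB, differed by -2.08 (adjusted p = 6.37e-12) and -1.99 (adjusted p = 4.44e-11), and the cytokine LIF by -1.98 (adjusted p = 3.59e-13) and -2.22 (adjusted p = 5.85e-13). ID1, an inhibitor of differentiation factors, stood at 73.1 and 72.00 CPM with DMSO, 64.5 and 66.7 with itacitinib and 17.6 and 19.1 with ruxolitinib at 4 h and at 85.1 and 90.7 CPM with DMSO, 80.4 and 76.1 with itacitinib and 33.2 and 35.8 with ruxolitinib at 48 h. It differed between the compounds by -1.84 and then -1.18, with a contrast of 0.66 (SE 0.11, adjusted p = 1.57e-04). In CCND2, a D-type cyclin of the G1 phase, the difference grew. It was -0.19 (SE 0.05, adjusted p = 0.0102) at 4 h, a call that was lost without either ruxolitinib replicate or without itacitinib replicate 1 (adjusted p up to 0.136), and -0.94 (SE 0.05, adjusted p = 2.61e-15) at 48 h, with a contrast of -0.75 (SE 0.07, adjusted p = 4.21e-09), when it stood at 581 and 581 CPM with DMSO, 532 and 491 with itacitinib and 271 and 262 with ruxolitinib.

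The genes of this list whose direct difference did not follow include MYC, the growth regulator. At 4 h MYC stood at 917 and 915 CPM with DMSO, 855 and 847 with itacitinib and 821 and 815 with ruxolitinib. It was 1.12-fold lower than DMSO with ruxolitinib and 1.077-fold lower with itacitinib. The difference between the compounds was -0.06 (95% interval -0.14 to 0.02) at 4 h, within 1.41-fold either way, and 0.20 (SE 0.04, adjusted p = 3.97e-04) at 48 h. The gene higher with ruxolitinib at 4 h was BCL6, at 0.0563 and 0.131 CPM with itacitinib and 0.474 and 0.775 CPM with ruxolitinib. At this low level the call (difference 2.69, SE 0.87, adjusted p = 0.0344) was lost without any 1 of the 4 libraries, without the low-count filter and when adjusted within the comparison alone (adjusted p up to 0.242), and DESeq2 called no gene of the list higher. BCL2L1, which encodes the anti-apoptotic BCL-XL, differed by -0.72 (SE 0.04, adjusted p = 4.80e-14) at 4 h and -0.34 (SE 0.04, adjusted p = 5.72e-07) at 48 h. MCL1, another such protein, differed by -0.27 (SE 0.05, adjusted p = 6.64e-05) and -0.23 (SE 0.05, adjusted p = 6.37e-04). BCL2 itself differed by -0.82 (adjusted p = 2.13e-06) and -0.70 (adjusted p = 1.05e-05). In the BCL2 family 3 of 15 tested genes, these 3, were lower with ruxolitinib at each time. At 48 h 2 were higher, the pro-apoptotic BBC3 (0.52, adjusted p = 3.91e-04) and BCL2L11 (0.33, adjusted p = 7.44e-05). The share of lower genes over all genes was 4.72% at 4 h and 9.27% at 48 h. That of higher genes at 48 h was 10.6%, so the 2 are not read as an effect on the family.

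**Figure D2:**
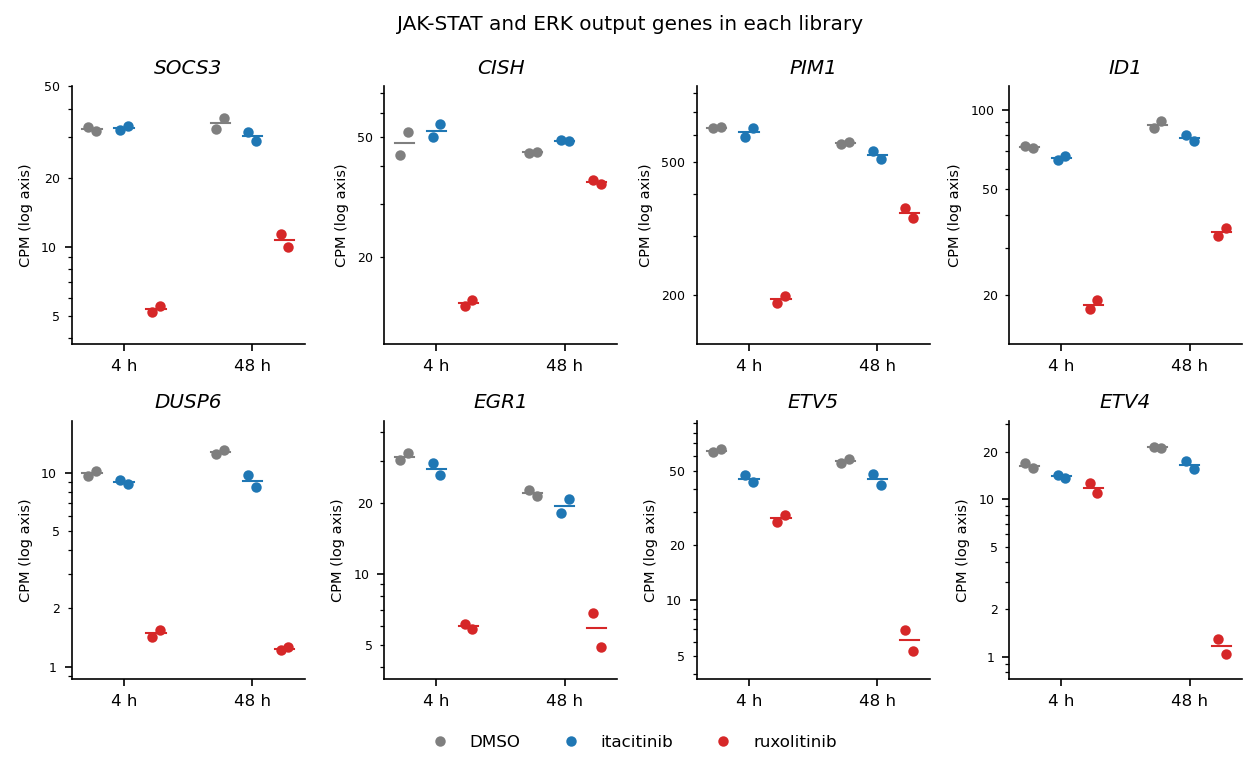
CPM on a log axis in each library (points; the line is the mean of 2) for 4 JAK-STAT targets (top) and 4 genes of the ERK pathway (bottom), at 4 h and 48 h. In all 8 genes both ruxolitinib points lie below the itacitinib and DMSO points at both times, and only for ETV4 at 4 h did the difference between the compounds not pass the test.

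Most genes for the JAKs, the STATs and their negative regulators had an interval within 1.41-fold. Of 26 genes for JAKs, STATs and their negative regulators, 1 was higher and 3 were lower with ruxolitinib at 4 h, and 24 had an interval within 1.41-fold. At 48 h 5 were higher and 5 lower, and 21 had such an interval. The shares over all genes were 3.26% higher and 4.72% lower at 4 h, and 10.6% and 9.27% at 48 h. At 48 h the list thus held more called genes than those shares. JAK2 stood at 168 and 177 CPM with DMSO, 182 and 194 with itacitinib and 276 and 286 with ruxolitinib at 48 h, higher in both ruxolitinib libraries than in the other 4. The compounds differed by 0.16 (SE 0.05, adjusted p = 0.0417) at 4 h, a call lost without any 1 of the 4 libraries and when adjusted within the comparison alone (adjusted p up to 0.223), and by 0.58 (SE 0.05, adjusted p = 4.18e-10) at 48 h. JAK1 stood at 299 and 279.7 CPM with itacitinib and 289 and 295 CPM with ruxolitinib at 4 h, a difference of 0.01 (95% interval -0.09 to 0.11). At 48 h it was -0.06 (95% interval -0.16 to 0.04), and both intervals lay within 1.41-fold. At 48 h STAT5A (0.34, adjusted p = 1.73e-07), STAT5B (0.38, adjusted p = 3.69e-08) and STAT6 (0.44, adjusted p = 8.51e-09) were higher with ruxolitinib. STAT4 (-0.46, adjusted p = 0.00692), the ubiquitin ligase CBL (-0.71, adjusted p = 2.78e-09) and JAK3 (-0.35, adjusted p = 4.62e-07) were lower, as was SH2B3, an adaptor that restrains JAK2 (-0.48, adjusted p = 5.48e-09), which had also been lower at 4 h (-0.54, adjusted p = 4.40e-10). The call of STAT4 was lost without replicate 2 of either compound (adjusted p up to 0.077). STAT3 was not called, and its intervals were -0.17 to -0.01 at 4 h and -0.09 to 0.07 at 48 h.

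Of 22 cytokine receptor genes, 4 were higher and 3 lower with ruxolitinib at 4 h, or 2 and 3 adjusted within the comparison alone. At 48 h 6 were higher and 7 lower. Over all genes the shares were 3.26% higher and 4.72% lower at 4 h, and 10.6% and 9.27% at 48 h. The 4 became 2 without either itacitinib replicate and 1 without ruxolitinib replicate 1. IL4R, the interleukin-4 receptor, stood at 17.1 and 15.5 CPM with itacitinib and 8.09 and 8.86 CPM with ruxolitinib at 4 h and at 17.5 and 17.2 against 6.16 and 5.89 CPM at 48 h. It differed by -0.94 (adjusted p = 2.34e-07) and -1.52 (adjusted p = 1.23e-11). CSF2RB, the beta chain shared by the receptors for related myeloid cytokines, was higher with ruxolitinib by 0.33 (SE 0.05, adjusted p = 1.24e-05) and 0.88 (SE 0.05, adjusted p = 4.88e-15). IL2RB fell short of a call at 4 h (-0.11) and was lower at 48 h (-1.12, adjusted p = 9.87e-10).

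Interferon-stimulated genes are the classic output of JAK1 with TYK2. Over all genes 3.26% were higher and 4.72% lower with ruxolitinib at 4 h, and 10.6% and 9.27% at 48 h. Of 42 tested interferon-stimulated genes, 2 were higher and 2 lower with ruxolitinib at 4 h (0 and 2 adjusted within the comparison alone). An interval within 1.41-fold was found for 28 of the 42. At 48 h 4 were higher and 7 lower, or 2 and 4 without ruxolitinib replicate 2. The number of higher genes was also 2 without replicate 1 of either compound. None of the 42 passed with itacitinib against DMSO at either time by edgeR's quasi-likelihood test, also when adjusted together. At an unadjusted p under 0.05 there were 4 at 4 h and 5 at 48 h. IFITM3, a membrane protein that blocks virus entry, stood at 60.4 and 59.5 CPM with DMSO, 54.3 and 50.2 with itacitinib and 38.7 and 35.3 with ruxolitinib at 48 h, a difference of -0.50 (SE 0.07, adjusted p = 1.55e-06). The largest difference of the list at 48 h was that of BST2, 3.665-fold lower with ruxolitinib (-1.87 on the log2 scale). Against DMSO BST2 was 5.77-fold lower with ruxolitinib and 1.57-fold lower with itacitinib. IFIT2 was higher with ruxolitinib (1.29, adjusted p = 1.31e-06). For IRF9, the DNA-binding subunit of the interferon-activated STAT complex, the intervals were -1.49 to 0.11 and -1.31 to 0.24, too wide to bound the difference. MHC class I genes were higher with ruxolitinib at 48 h in 8 of 17, with a median difference of 0.129, and the number was 5 without itacitinib replicate 2 and 4 without ruxolitinib replicate 2. HLA-C stood at 156 and 158 CPM with DMSO, 138 and 133 with itacitinib and 177 and 191 with ruxolitinib at 48 h, so that itacitinib libraries lay below DMSO and ruxolitinib libraries above it. Against DMSO it changed by -0.21 with itacitinib (adjusted p = 0.0326 within the comparison) and 0.23 with ruxolitinib (adjusted p = 3.65e-04), and the compounds differed by 0.44 (SE 0.05, adjusted p = 1.65e-08). PSMB9, an immunoproteasome subunit, differed by 0.76 (SE 0.06, adjusted p = 1.84e-11).

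Receptors that activate JAKs also feed the RAS and ERK kinase cascade, which drives the ETS factors ETV4 and ETV5, the immediate-early factor EGR1 and the phosphatases that restrain it. Of 20 tested ERK output genes, 15 were lower with ruxolitinib than with itacitinib at 4 h (median -0.74) and 16 at 48 h (median -0.959), and none was higher, by edgeR's quasi-likelihood test, by DESeq2 or at an unadjusted p under 0.05. CCND1 is in this list and among the JAK-STAT targets. The share of lower genes over all genes was 4.72% at 4 h and 9.27% at 48 h. Against DMSO, 16 of the 20 fell with ruxolitinib at each time. With itacitinib 2 fell at 4 h and 3 at 48 h adjusted within the comparison, and 3 and 5 adjusted together.

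DUSP6, the phosphatase that acts on ERK (chr12:89347232-89353271, minus strand), stood at 9.57 and 10.3 CPM with DMSO, 9.21 and 8.76 with itacitinib and 1.42 and 1.55 with ruxolitinib at 4 h and at 12.5 and 13.1 CPM with DMSO, 9.78 and 8.41 with itacitinib and 1.21 and 1.26 with ruxolitinib at 48 h. The compounds differed by -2.59 on the log2 scale (SE 0.15, 95% interval -2.90 to -2.28, adjusted p = 1.29e-14) at 4 h, or 6.01-fold, and -2.87 (SE 0.15, adjusted p = 2.21e-15) at 48 h. Itacitinib libraries lay below DMSO at 48 h, a change of -0.50 (SE 0.11, adjusted p = 0.0275 within the comparison), beside -3.37 with ruxolitinib. EGR1 stood at 30.4 and 32.4 CPM with DMSO, 29.5 and 26.2 with itacitinib and 6.13 and 5.81 with ruxolitinib at 4 h and differed by -2.22 (SE 0.14, adjusted p = 1.00e-13), then by -1.72 (SE 0.14, adjusted p = 5.71e-11) at 48 h.

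ETV5 fell with both compounds. At 4 h it stood at 62.6 and 65.3 CPM with DMSO, 47.4 and 43.1 with itacitinib and 26.5 and 28.9 with ruxolitinib, in 3 ranges that did not overlap. Its change from DMSO was -0.50 with itacitinib (adjusted p = 4.12e-04 within the comparison) and -1.20 with ruxolitinib (adjusted p = 2.14e-13), and the compounds differed by -0.70 (SE 0.08, adjusted p = 3.29e-08). At 48 h it stood at 54.6 and 57.6 CPM with DMSO, 47.7 and 42.01 with itacitinib and 6.95 and 5.35 with ruxolitinib, and the compounds differed by -2.86 (SE 0.09, adjusted p = 1.03e-20), or 7.26-fold. ETV4 stood at 14.3 and 13.6 CPM with itacitinib and 12.7 and 10.9 CPM with ruxolitinib at 4 h, a difference of -0.25 (95% interval -0.49 to -0.00) that did not pass. At 48 h it was at 21.6 and 21.2 CPM with DMSO, 17.5 and 15.4 with itacitinib and 1.30 and 1.05 with ruxolitinib, a difference of -3.80 (SE 0.17, adjusted p = 1.63e-17), or 13.9-fold. The difference in ETV4 moved by -3.55 on the log2 scale between the times (SE 0.21, adjusted p = 1.85e-13), and that in ETV5 by -2.15 (SE 0.13, adjusted p = 1.85e-13). PHLDA1 differed by -1.51 (adjusted p = 2.59e-11) and -1.11 (adjusted p = 1.05e-05), and HBEGF, a ligand of the EGF receptor, by -1.20 (adjusted p = 0.00378) and -1.86 (adjusted p = 5.13e-05). The 4 h call of HBEGF was lost without itacitinib replicate 1 (adjusted p up to 0.192).

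**Figure D3:**
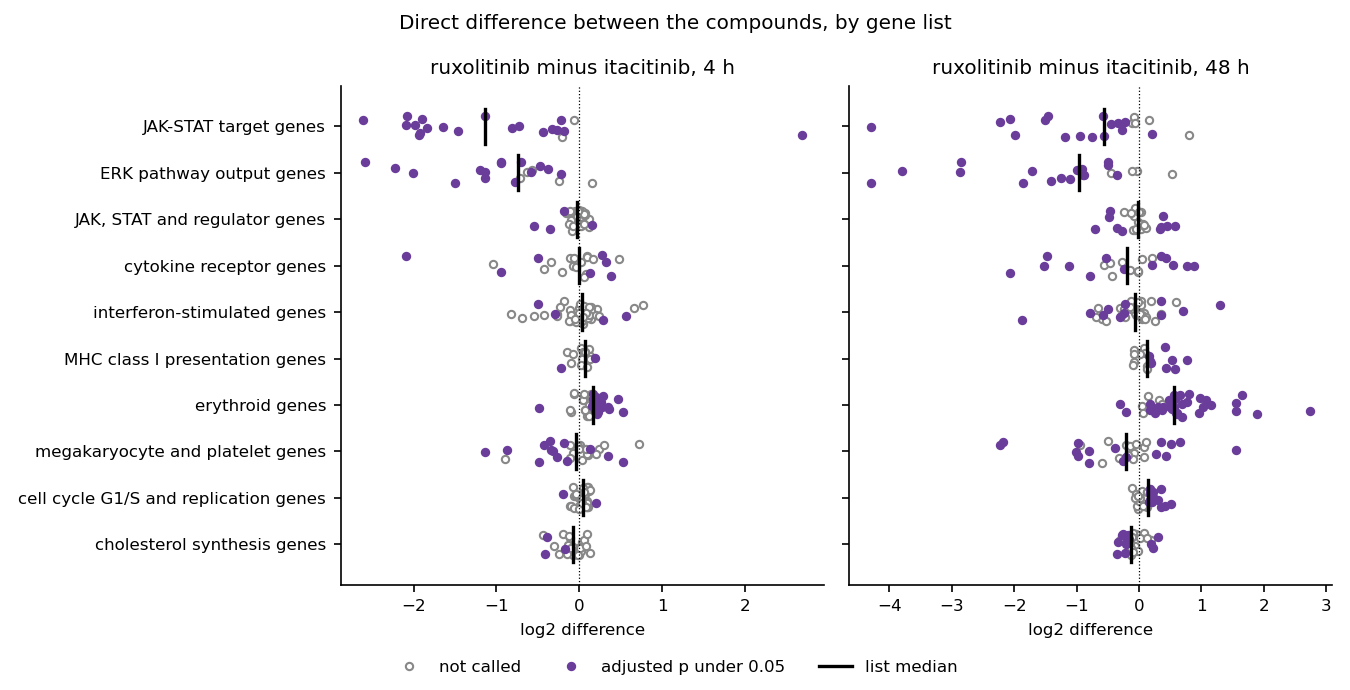
The log2 difference ruxolitinib minus itacitinib of each tested member of 10 gene lists at 4 h (left) and 48 h (right), each panel with its own axis. Filled points passed the test, and the bar is the list's median. JAK-STAT targets (median -1.14 at 4 h) and ERK output genes (-0.74) lie left of 0, and erythroid genes lie to the right at 48 h (median 0.556).

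HEL cells make globin and can mature along the erythroid or the megakaryocytic path. Of 41 tested erythroid genes, 19 were higher and 1 lower with ruxolitinib than with itacitinib at 4 h (median 0.168), and the 19 became 11 without itacitinib replicate 1 and 10 without ruxolitinib replicate 1. At 48 h 34 were higher and 2 lower (median 0.556, against -0.00613 over all genes). The shares over all genes were 3.26% higher and 4.72% lower at 4 h, and 10.6% and 9.27% at 48 h. Against DMSO at 48 h, 33 rose with ruxolitinib, or 36 adjusted within the comparison. With itacitinib 7 rose adjusted together and 3 adjusted within the comparison. In bulk RNA, more cells of an erythroid kind and more RNA per cell cannot be told apart.

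HBZ, the embryonic zeta globin, stood at 7.65 and 5.26 CPM with DMSO, 10.6 and 10.8 with itacitinib and 34.6 and 32.4 with ruxolitinib at 48 h. The libraries fell in the order DMSO, itacitinib, ruxolitinib, with no overlap. The change from DMSO was 0.73 with itacitinib (SE 0.14, adjusted p = 0.0106 within the comparison) and 2.37 with ruxolitinib, and the compounds differed by 1.65 (SE 0.12, adjusted p = 5.76e-12). At 4 h the difference was 0.19 (95% interval -0.09 to 0.48) and did not pass. HBA2, an alpha globin gene, stood at 159 and 152 CPM with DMSO, 198 and 204 with itacitinib and 766 and 727 with ruxolitinib at 48 h, a difference of 1.89 (SE 0.10, adjusted p = 9.65e-16). Reads of HBA2 and its near-identical copy HBA1 may be split by the counting, which leaves the value of either gene uncertain. HBG2, a fetal globin with a similar copy in HBG1, stood at 2050.1 and 1892 CPM with itacitinib and 2964 and 2958 CPM with ruxolitinib, a difference of 0.59 (SE 0.06, adjusted p = 6.24e-09).

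ALAS2, the enzyme that starts haem synthesis in red cells (chrX:55009055-55031064, minus strand), stood at 36.3 and 35.4 CPM with DMSO, 44.2 and 47.4 with itacitinib and 133 and 135 with ruxolitinib at 48 h. It changed from DMSO by 0.36 with itacitinib (adjusted p = 0.0431 within the comparison) and 1.90 with ruxolitinib, and the compounds differed by 1.55 (SE 0.08, adjusted p = 8.31e-16), or 2.92-fold. ALAD, the next enzyme of the pathway, differed by 1.16 (SE 0.06, adjusted p = 2.24e-15). PKLR, the pyruvate kinase of red cells and liver, stood at 17.96 and 15.2 CPM with DMSO, 20.3 and 18.2 with itacitinib and 63.3 and 64.9 with ruxolitinib and differed by 1.74 (SE 0.08, adjusted p = 1.12e-16). GFI1B, a repressor in both lineages, was the gene lower with ruxolitinib at 4 h (-0.49, adjusted p = 1.01e-07), and it was 1 of the 2 lower at 48 h (-0.21, adjusted p = 0.00965), a call lost without replicate 1 of either compound (adjusted p up to 0.234).

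GATA1, the master regulator of red cell genes, binds motifs such as AGATAA, which was searched on both strands of the same RefSeq windows. Of the 34 erythroid genes higher at 48 h, 18 had windows, 23 in all, and 12 of the windows (52.2%), from 10 genes, held the motif. Over all 35116 windows the share was 10.3%, and the match is a description of the letters only. The genes come from a list written as erythroid, and no share was taken for its members that were not called. The share thus describes the list and not a response to the compounds. GYPB and RHCE each entered with overlapping windows that hold the same site. ALAS2, whose level rose with ruxolitinib as given above, is printed as an example. The stretch of its window before the start in both RefSeq and GENCODE (GRCh38.p14 chrX:55031065-55031227, minus strand), 5' to 3', holds the reverse complement of the motif from base 124, in capitals.
ALAS2: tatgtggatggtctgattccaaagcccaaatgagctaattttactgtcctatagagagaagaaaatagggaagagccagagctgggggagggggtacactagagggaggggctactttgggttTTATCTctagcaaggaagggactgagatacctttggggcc

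**Figure D4:**
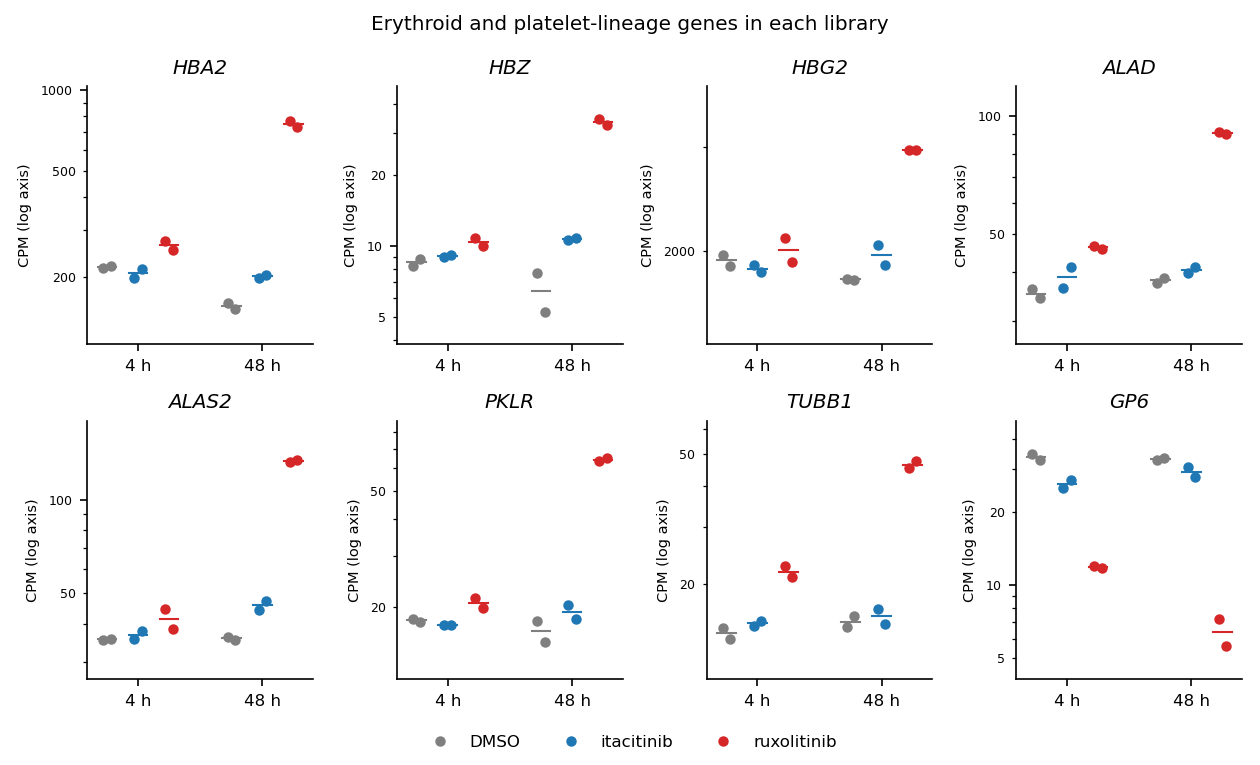
CPM on a log axis in each library (points; the line is the mean of 2) for 6 erythroid genes and the platelet-lineage genes TUBB1 and GP6, at 4 h and 48 h. At 48 h both ruxolitinib points lie above all others in every gene but GP6, where they lie below.

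Of 29 tested megakaryocyte and platelet genes, 3 were higher and 10 lower with ruxolitinib at 4 h, and 6 higher and 10 lower at 48 h. The shares over all genes were 3.26% higher and 4.72% lower at 4 h, and 10.6% and 9.27% at 48 h. The 10 lower at 4 h became 6 without itacitinib replicate 1 and 5 without ruxolitinib replicate 1. GP6, the platelet collagen receptor, stood at 34.6 and 32.7 CPM with DMSO, 24.96 and 27.2 with itacitinib and 11.98 and 11.7 with ruxolitinib at 4 h, in 3 ranges that did not overlap. It changed from DMSO by -0.37 with itacitinib (adjusted p = 0.0207 within the comparison) and -1.50 with ruxolitinib. The compounds differed in GP6 by -1.14 (SE 0.09, adjusted p = 2.06e-11) at 4 h and -2.18 (SE 0.10, adjusted p = 1.93e-17) at 48 h, when the libraries held 30.5 and 27.8 CPM and 7.23 and 5.59 CPM. TUBB1, the platelet beta tubulin, went the other way, by 0.52 (SE 0.10, adjusted p = 1.86e-04) and 1.55 (SE 0.09, adjusted p = 1.20e-14). The clotting protein VWF was lower at 48 h (-2.23, adjusted p = 0.00866), at 0.492 and 0.752 CPM against 0.141 and 0.12 CPM, and its call was lost without either ruxolitinib replicate or itacitinib replicate 2 (adjusted p up to 0.092). ITGA2B, the platelet integrin alpha IIb, was called at neither time and had intervals of -0.20 to -0.02 and 0.02 to 0.20.

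Of 32 genes of the G1/S transition and DNA replication, 1 was higher and 1 lower at 4 h (5 and 1 by DESeq2), and all 32 had an interval within 1.41-fold. At 48 h 15 were higher with ruxolitinib (median 0.148), 29 of the 32 within that bound. E2F2, a transcription factor of S phase entry, differed by 0.51 (SE 0.05, adjusted p = 7.46e-09) and CCNE2, the cyclin E2, by 0.41 (SE 0.10, adjusted p = 0.00425) at 48 h. CCNE2 stood at 14.9 and 13.5 CPM with DMSO, 13.01 and 14.8 with itacitinib and 18.5 and 18.6 with ruxolitinib, and its call was lost without itacitinib replicate 1 (adjusted p up to 0.0909). Of 28 mitosis genes 6 were higher at 4 h and 7 at 48 h, with medians of 0.135 and 0.0208. The share of higher genes over all genes was 3.26% at 4 h and 10.6% at 48 h. The 6 became 10 without itacitinib replicate 1 and 11 without the low-count filter.

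Cholesterol synthesis genes were called against DMSO at 48 h with each compound, in comparisons that share their 2 DMSO libraries, so the counts stand side by side and nothing is read from their common direction. Of 27 tested, 17 fell with ruxolitinib, or 18 adjusted within the comparison. With itacitinib 10 fell, or 5 within the comparison. Of all genes 10.6% fell with ruxolitinib and 1.39% with itacitinib, or 13.2% and 0.355% within the comparison. INSIG1, which holds back the activation of cholesterol genes, stood at 67.4 and 69.8 CPM with DMSO, 53.8 and 49.7 with itacitinib and 44.1 and 42.5 with ruxolitinib. It changed by -0.41 with itacitinib (adjusted p = 0.00207 within the comparison) and -0.66 with ruxolitinib (adjusted p = 9.12e-10). SCD, the fatty acid desaturase, changed by -0.32 (adjusted p = 0.00492) and -0.67 (adjusted p = 1.32e-11), and DHCR7, the last enzyme of the pathway, by -0.32 (adjusted p = 0.0104) and -0.65 (adjusted p = 8.61e-10). Directly, 3 of the 27 were higher and 9 lower with ruxolitinib at 48 h, 25 with an interval within 1.41-fold. The shares over all genes were 10.6% higher and 9.27% lower, so the 3 are not read as an effect on the list. The 9 became 2 without itacitinib replicate 1, and leaving out ruxolitinib replicate 1 or 2 gave 5 or 3. The 3 became 1 without replicate 2 of either compound.

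The genes that changed with itacitinib adjusted within the comparison can be read beside their values with ruxolitinib. Of the 71 at 48 h, 48 differed directly between the compounds, and in 43 of these ruxolitinib had moved the gene further from DMSO in the same direction. In 5 it had moved it less or the other way. These counts describe comparisons that share their DMSO libraries. The other 23 were not called directly, and 22 of them had an interval within 1.41-fold. Of the 125 at 4 h, 64 differed directly, 13 with ruxolitinib further from DMSO and 51 nearer or opposite, and 61 were not called, 51 of these within 1.41-fold. At both times the genes were picked by their itacitinib values. The direct comparison uses the same itacitinib libraries, so spread in these can push a gene towards nearer or opposite. Nothing is therefore read from these splits. IGFBP4, a binding protein of insulin-like growth factors, stood at 22.8 and 21.4 CPM with DMSO, 15.5 and 12.4 with itacitinib and 3.08 and 2.61 with ruxolitinib at 48 h. It changed by -0.67 with itacitinib (adjusted p = 0.00492 within the comparison) and -2.95 with ruxolitinib, a direct difference of -2.28 (SE 0.15, adjusted p = 9.61e-14). PLCH1, a phospholipase C, changed by -0.36 (adjusted p = 0.0101) and -2.53, and differed directly by -2.16 (SE 0.08, adjusted p = 1.71e-19).

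**Figure D5:**
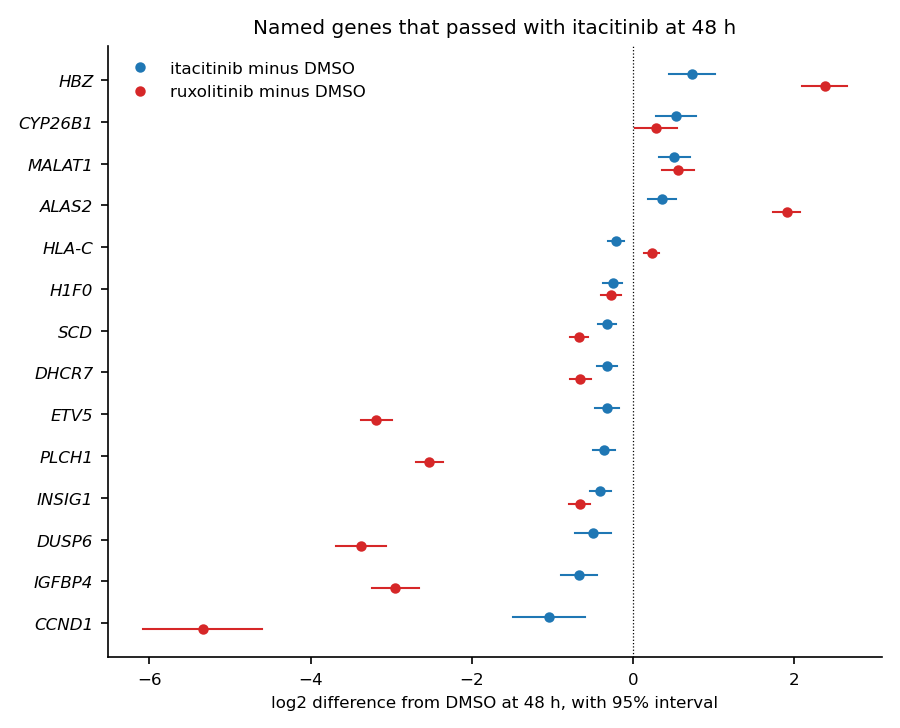
The log2 difference from DMSO at 48 h with its 95% interval, for itacitinib (blue) and ruxolitinib (red), of 14 named genes that passed with itacitinib adjusted within the comparison, 4 higher and 10 lower. For HBZ, ALAS2, SCD, DHCR7, ETV5, PLCH1, DUSP6, IGFBP4 and CCND1 the ruxolitinib value lies further from 0 and the intervals do not overlap, and for HLA-C the 2 lie on either side of 0. Both compounds share the DMSO libraries.

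RNAs whose share of a library can vary with its preparation also moved. Of 11 such structural RNAs, 7 rose with itacitinib and 6 with ruxolitinib against DMSO at 4 h, beside 1.79% and 3.41% of all genes. NEAT1, a nuclear noncoding RNA, stood at 196 and 165 CPM with DMSO, 281 and 454 with itacitinib and 232 and 262 with ruxolitinib, and changed by 1.03 with itacitinib (adjusted p = 1.45e-04 within the comparison) and 0.46 with ruxolitinib (adjusted p = 0.0303). The mitochondrial ribosomal RNA MT-RNR2 stood at 124 and 53.6 CPM with DMSO, 181 and 277 with itacitinib and 395 and 411 with ruxolitinib, and changed by 1.38 (adjusted p = 0.00208) and 2.20 (adjusted p = 8.34e-08). Replicates differed as well. At 4 h mitochondrial ribosomal RNA took 0.0181% and 0.00715% of all counts with DMSO, 0.0292% and 0.0439% with itacitinib, and 0.0604% and 0.0611% with ruxolitinib. MALAT1 and NEAT1 together made up 0.127% and 0.111%, 0.164% and 0.228%, and 0.130% and 0.155%, in the same order. Whether library preparation had a part in these changes was not tested. Directly, 2 of the 11 were higher and 2 lower with ruxolitinib at 4 h, beside 3.26% and 4.72% of all genes. The 2 lower were NEAT1 by -0.57 (SE 0.13, adjusted p = 0.00284) and MALAT1 by -0.41 (SE 0.10, adjusted p = 0.00288). Both calls were lost without ruxolitinib replicate 1 or itacitinib replicate 2 (adjusted p up to 0.418 for NEAT1 and 0.289 for MALAT1). The 13 mitochondrially encoded protein genes had medians of 0.499 with itacitinib and 0.406 with ruxolitinib against DMSO at 48 h. By edgeR's quasi-likelihood test 11 and 7 rose adjusted together, and 0 and 13 adjusted within the comparison. The shares over all genes were 0.771% and 9.85%, and 0.0871% and 12.5%. Directly none was called at 48 h by edgeR's quasi-likelihood test, by DESeq2 or at an unadjusted p under 0.05, and all 13 had an interval within 1.41-fold.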

How the data were processed

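RNA from 24 libraries of HEL cells was sequenced. Per the submitters' processing notes, the authors' tools were bcl2fastq, STAR 2.5.1a and edgeR, and the genome was GRCh38. What they deposited is a single table of raw counts per gene. Which program counted, on which annotation and with what strandedness, the sources used here do not give. After 130 entries with a repeated Ensembl ID were removed from 34343, 34213 genes were left. Genes beyond the table's last identifier are not analysed here. Coordinates are from GENCODE 29 and promoter windows from RefSeq.

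Genes were kept by filterByExpr (16076) and scaled with TMM, and all 24 libraries entered 1 quasi-likelihood fit by group in edgeR 4.0.16 with R 4.3.3 (12 residual degrees of freedom, common biological coefficient of variation 0.0468). P-values were adjusted over the 32152 tests of both direct comparisons together, over the 4 comparisons with DMSO together, and over all genes for the contrast between the times. The SE was taken from the F statistic and the log2 difference, and gave the 95% intervals. CPM values use TMM-scaled library sizes, except the summed levels of the markers and the range of LYZ, which use total counts. The procedure was tested on simulated data. Alternatives included DESeq2 1.42.0.

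The compounds, lists and tests were chosen with earlier results of these data known. Genes could be named from a panel, as the 12 most changed per comparison and direction with no overlap and at least 3 as average log2 CPM, as up to 5 called members per list, as the 6 per direction that changed most between the times, as up to 8 called with itacitinib but not directly, or as the 6 with opposite signs. Which of these are printed was chosen after their values were seen.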

Additional observations from a re-analysis of the deposited data

Results flagged for a closer look

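The direct difference between ruxolitinib and itacitinib changed between 4 h and 48 h in 1299 of 16076 genes (8.08%), 742 of them upward and 557 downward, by edgeR's quasi-likelihood test of the contrast between the times with Benjamini-Hochberg adjustment. The count was 832 without itacitinib 48 h replicate 1, 797 without itacitinib 4 h replicate 2 and 737 without ruxolitinib 48 h replicate 2.

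Among the genes with the largest contrasts, the difference became more negative for ETV4 (-0.25 at 4 h and -3.80 at 48 h, a contrast of -3.55, adjusted p = 1.85e-13), ETV5 (-0.70 at 4 h and -2.86 at 48 h, a contrast of -2.15, adjusted p = 1.85e-13), SLC34A1 (-0.54 at 4 h and -2.47 at 48 h, a contrast of -1.93, adjusted p = 7.88e-08) and IGFBP4 (-0.37 at 4 h and -2.28 at 48 h, a contrast of -1.91, adjusted p = 1.25e-08). It also did for IL1RL1 (-0.08 at 4 h and -1.84 at 48 h, a contrast of -1.76, adjusted p = 3.60e-11) and FEV (-0.21 at 4 h and -1.59 at 48 h, a contrast of -1.38, adjusted p = 4.49e-09). SLC34A1 is a phosphate transporter, IL1RL1 the interleukin-33 receptor and FEV an ETS factor.

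The difference became more positive for the feedback gene CISH (-1.90 at 4 h and -0.45 at 48 h, a contrast of 1.44, adjusted p = 5.89e-11) and the kinase PIM2 (-1.94 at 4 h and -0.58 at 48 h, a contrast of 1.35, adjusted p = 6.50e-13), which were nearer to 0 at 48 h. It also became more positive for the erythroid genes ALAS2 (0.17 at 4 h and 1.55 at 48 h, a contrast of 1.38, adjusted p = 3.71e-10) and HBZ (0.19 at 4 h and 1.65 at 48 h, a contrast of 1.45, adjusted p = 1.78e-06) and for PKLR (0.25 at 4 h and 1.74 at 48 h, a contrast of 1.484, adjusted p = 1.82e-10) and HBA2 (0.35 at 4 h and 1.89 at 48 h, a contrast of 1.55, adjusted p = 8.92e-10), which were further from 0 at 48 h.

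Of the genes called at both times, 12 were higher with ruxolitinib and then lower, and 16 lower and then higher. The 6 with the largest smaller difference are given here. The difference was positive at 4 h and negative at 48 h for NELL2 (1.06 at 4 h and -1.15 at 48 h, a contrast of -2.21, adjusted p = 0.00149), PTX3 (0.74 at 4 h and -1.29 at 48 h, a contrast of -2.03, adjusted p = 2.64e-05) and HGF (0.68 at 4 h and -0.78 at 48 h, a contrast of -1.46, adjusted p = 7.63e-06). It was also positive and then negative for GFI1 (0.33 at 4 h and -0.82 at 48 h, a contrast of -1.15, adjusted p = 1.30e-05) and JUN (0.28 at 4 h and -0.50 at 48 h, a contrast of -0.78, adjusted p = 1.27e-04). In the antiproliferative gene BTG2 (-0.38 at 4 h and 0.51 at 48 h, a contrast of 0.89, adjusted p = 1.79e-09) it was negative and then positive. HGF, a growth factor, stood at 6.40 and 5.29 CPM with itacitinib and 8.75 and 9.86 CPM with ruxolitinib at 4 h, and at 6.25 and 8.16 against 4.12 and 4.30 CPM at 48 h. JUN, an immediate-early factor, stood at 68.5 and 69.5 against 83.6 and 83.6 CPM and at 9.71 and 8.46 against 6.30 and 6.49 CPM. The 4 h call of NELL2 was lost without either ruxolitinib replicate or itacitinib replicate 2 (adjusted p up to 0.146), that of GFI1 without replicate 1 of either compound (up to 0.219) and that of PTX3 without itacitinib replicate 2 (up to 0.113). The 48 h call of NELL2 was lost without ruxolitinib replicate 2 or itacitinib replicate 1 (adjusted p up to 0.347).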

How the results depend on the processing

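The numbers of called genes varied with the processing as follows, each choice changed alone. RLE in place of TMM, dropping or tightening (to 1 CPM in 6 libraries) the filter on low counts, fitting fewer libraries, and DESeq2 each kept every total within 1.5 times of its value. DESeq2 called 1230 genes at 4 h, 3011 at 48 h and 1283 in the contrast between the times. At 4 h 594 of its genes were higher and 636 lower. For itacitinib against DMSO at 48 h the 124 higher genes became 54 with DESeq2 (of 336 calls, 16.1%), 197 without the low-count filter (of 396, 49.7%), 231 with the libraries of 48 h alone (of 469, 49.3%) and 257 with those of both groups alone (of 502, 51.2%). With each comparison adjusted alone, 948 genes differed at 4 h and 3521 at 48 h, and 125 and 71 genes passed with itacitinib against DMSO at 4 h and 48 h.

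Leaving out each library in turn gave 744 to 1048 direct calls at 4 h, 2014 to 2297 at 48 h and 737 to 1190 in the contrast between the times. Against DMSO it gave 850 to 951 with ruxolitinib at 4 h, 2125 to 2401 at 48 h, 107 to 470 with itacitinib at 4 h and 138 to 319 at 48 h. The lone library of a group was assumed to vary like the others, and fewer libraries were fitted. Of the named genes called at 4 h, 1527 of 1694 pairs of gene and alternative kept the call and 167 lost it. At 48 h 1959 of 2040 kept it, and none reversed at either time.

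Samples with the same replicate number did not deviate together (correlation -0.106 between ruxolitinib and itacitinib at 4 h and -0.101 at 48 h, in a range of -0.346 to 0.38 over all pairs of groups), so the numbers are not taken as a pairing. With the replicate number as a block the counts were 1423 at 4 h and 3340 at 48 h, and 1406 in the contrast between the times. Against DMSO the replicate block gave 1467 and 3453 with ruxolitinib and 418 and 409 with itacitinib. With the itacitinib numbers crossed, an alternative chosen after seeing the data, it gave 1448 and 3378, and a fit on protein-coding genes alone, also chosen after seeing the data, kept every count within 1.5 times. Depth limits genes of a few counts, such as BCL6 and IRF9, whose intervals were wide.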

Other observations

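Some groups outside the JAK, ERK and erythroid genes held genes called at 48 h, the time of the values next given. Over all genes 3.26% were higher and 4.72% lower with ruxolitinib at 4 h, and 10.6% and 9.27% at 48 h. A count near those shares is not read as an effect on a group. Of 25 genes of the ATF4 stress response, 1 was higher and 9 lower with ruxolitinib (5 lower without itacitinib 48 h replicate 1 or without ruxolitinib 48 h replicate 2). DDIT4, an inhibitor of mTOR signalling, stood at 7.51 and 6.80 CPM with DMSO, 7.57 and 5.71 with itacitinib and 3.08 and 3.66 with ruxolitinib and differed by -0.97 (SE 0.15, adjusted p = 1.03e-05). The pseudokinase TRIB3 differed by -0.53 (SE 0.08, adjusted p = 1.92e-05) and the serine synthesis enzyme PSAT1 by -0.45 (SE 0.07, adjusted p = 4.00e-06).

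Of 30 ribosome biogenesis genes, 4 were lower at 4 h (2 adjusted within the comparison or without itacitinib 4 h replicate 2, and 1 without ruxolitinib 4 h replicate 2) and 1 was higher and 11 lower at 48 h (5 lower without ruxolitinib 48 h replicate 2). RRP12 differed by -0.40 (SE 0.06, adjusted p = 2.41e-06) and RRP9 by -0.43 (SE 0.06, adjusted p = 2.98e-06). Of 22 glycolysis genes 4 were higher and 10 lower at 48 h (6 lower without itacitinib 48 h replicate 1). The glucose transporter SLC2A3 differed by -0.998 (SE 0.05, adjusted p = 3.33e-15) at 4 h and -1.10 (SE 0.06, adjusted p = 6.27e-16) at 48 h, and ENO2 by -0.53 at 48 h (adjusted p = 5.62e-05).

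Of 19 NF-kB target genes, 3 were lower at 4 h, and 2 were higher and 5 lower at 48 h (3 lower without itacitinib 48 h replicate 2 and 2 without ruxolitinib 48 h replicate 1). Of 22 p53 target genes, 2 were higher and 6 lower at 4 h, and 3 higher and 5 lower at 48 h (2 lower without itacitinib 48 h replicate 1 or either ruxolitinib 48 h replicate). The largest difference of the p53 list at 4 h was that of GDF15, 3.965-fold lower with ruxolitinib (-1.99 on the log2 scale). TIGAR differed by -1.03 (SE 0.31, adjusted p = 0.0192) at 4 h and -1.03 (SE 0.28, adjusted p = 0.00995) at 48 h. Its 4 h call was lost without ruxolitinib replicate 1 or itacitinib replicate 2. The 48 h call was lost without itacitinib replicate 1 or either ruxolitinib replicate.

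ID3 and ID2, BMP-SMAD targets like ID1, were not called at 4 h, with intervals of -0.30 to 0.18 and -0.08 to 0.36, and were lower with ruxolitinib at 48 h by -1.04 (SE 0.12, adjusted p = 4.83e-08) and -0.65 (SE 0.11, adjusted p = 3.88e-05). Of 10 tested genes of that list 1 was higher and 1 lower at 4 h and 2 higher and 4 lower at 48 h. Of 14 genes that BET inhibitors are known to raise, 6 were higher and 1 lower at each time, and HEXIM1, the best known of them, had intervals of -0.11 to 0.13 and -0.07 to 0.16. The 6 became 3 without itacitinib replicate 1 at 4 h and 3 without ruxolitinib replicate 2 at 48 h. Of 22 transcription elongation and immediate-early genes, 2 were higher and 5 lower at 4 h (3 lower without itacitinib replicate 2 and 2 without ruxolitinib replicate 2), and 3 higher and 2 lower at 48 h.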
